A study of Mus musculus with 5 samples.

Results

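The genes described here decide whether a cell enters apoptosis: the Bcl2 family, the caspases, the inhibitors of apoptosis, the death receptor pathway and the factors released from mitochondria. The set is a list of 38 gene symbols drawn up by function, with no threshold on any measured value but with earlier results of these data known, and all 38 had a row among the 23234 genes of the deposited table. RNA came from GFP-positive cells sorted from the cortex of CD1 mouse embryos, harvested at E15.5 after electroporation at E12.5. In 3 samples the construct carried Ptf1a together with GFP, and in 2 control samples it carried GFP alone; cells of 3 to 6 brains were pooled for each sample. Electroporation marks whichever cells took up the plasmid and their progeny, and the promoter that drove the construct is not given in the sources used here. The labels call the cells embryonic cortical pyramidal cells. Ptf1a is a basic helix-loop-helix transcription factor best known for giving neurons an inhibitory fate, for example in the dorsal spinal cord, and for making pancreatic acinar cells.

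Apoptosis runs along 2 routes. In the mitochondrial route, BH3-only proteins such as Bid and Bad sense stress and bind the anti-apoptotic proteins Bcl2, Bcl2l1 (Bcl-xL) and Mcl1 or activate Bax and Bak1 directly; Bax and Bak1 then open the outer mitochondrial membrane, cytochrome c escapes, and with Apaf1 it assembles the platform that activates caspase-9. In the death receptor route, ligand-bound Fas or the TNF receptor recruits the adaptors Fadd and Tradd and caspase-8, which Cflar restrains. In the developing cortex these proteins set how many progenitors and newborn neurons survive, and Bax and Bcl2l1 are the members best known there.

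Each gene had one FPKM value per group (fragments scaled to transcript length and library size), merged over samples by the authors, so no spread between samples can be given and precision is known only through the authors' Cuffdiff test. The words rose and fell are kept for genes whose q in the authors' test was under 0.05, always with Ptf1a relative to GFP alone. The ratio of the authors' log2 fold to their test statistic is given as an implied standard error. By this rule 37.7% of the 11876 tested genes were called, 18.7% higher and 19.1% lower, and the construct's own gene, Ptf1a, stood at 0.210 FPKM in controls and 38.9 FPKM with Ptf1a. All 10 pyramidal neuron markers were detected in both groups, with Neurod6 at 1717 and 1190 FPKM. Markers of cell types moved with the groups, however. Of 16 progenitor and cell cycle genes 15 rose and 0 fell, their summed level going from 2089 to 3806 FPKM, and of 10 pyramidal genes 7 fell and 0 rose, from a sum of 1887 to 1321 FPKM. Microglial genes summed to 18.8 and 14.0 FPKM, with 10 listed, 7 tested and 1 lower. Endothelial genes summed to 4.40 and 7.17 FPKM, with 8 listed, 3 tested and 1 higher. Red blood cell genes went from a sum of 150 to 62.7 FPKM, with 7 listed, 6 tested and 3 lower. Pericyte and meningeal genes went from 4.66 to 5.32 FPKM, with 7 listed, 4 tested, 2 higher and 1 lower. Interneuron genes summed to 7.28 and 16.0 FPKM, with 8 listed, 5 tested and 4 higher. In each of these lists at least 1 defining marker was above 0 in both groups, and Hbb-bh1 alone was listed at 0 in both. The part of this shift in the results that follow was not tested, and in sorted bulk cells fewer cells of a type and less RNA per cell cannot be told apart.

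Of the 38 members, 28 carried a test. With Ptf1a 6 rose (Bcl2, Casp6, Aifm1, Tnfrsf1a, Fadd and Cflar) and 6 fell (Bok, Bad, Bid, Apaf1, Cycs and Tradd), which is 42.9% of the tested members against the 37.7% called among all tested genes. The share called was thus near that of the table as a whole. The median log2(FPKM + 0.1) difference, Ptf1a minus control, was 0.029 over the tested members and -0.0088 over all tested genes. By the authors' deposited log2 fold, 6 of the 28 tested members were called with a change of at least 1.5-fold (Bcl2, Fadd, Cflar, Bok, Tradd and Apaf1). Of all tested genes 21.6% were called at that size. On the log2(FPKM + 0.1) scale, which understates weak genes, 4 of the 28 were called at that size (Bcl2, Fadd, Bok and Tradd), against 20.7% of all tested genes. At 2-fold on that scale 2 of the 28 were called, Bcl2 and Bok, against 8.54% of all tested genes. The median size of the authors' deposited log2 fold, sign left out, was 0.59 over the called members and 0.65 over all called genes. At a q under 0.01, which 25.9% of tested genes passed, 7 members were called (Bcl2, Casp6, Aifm1, Bok, Bad, Cycs and Tradd). For every called member but Bok, the authors' p was smaller than a two-sided normal p of their own test statistic; calls from that normal p, adjusted over all tested genes, covered 6.08% of tested genes and kept 2 members, Bok and Tradd. The 10 members without a test were all under 0.6 FPKM in both groups.

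**Figure D1:**
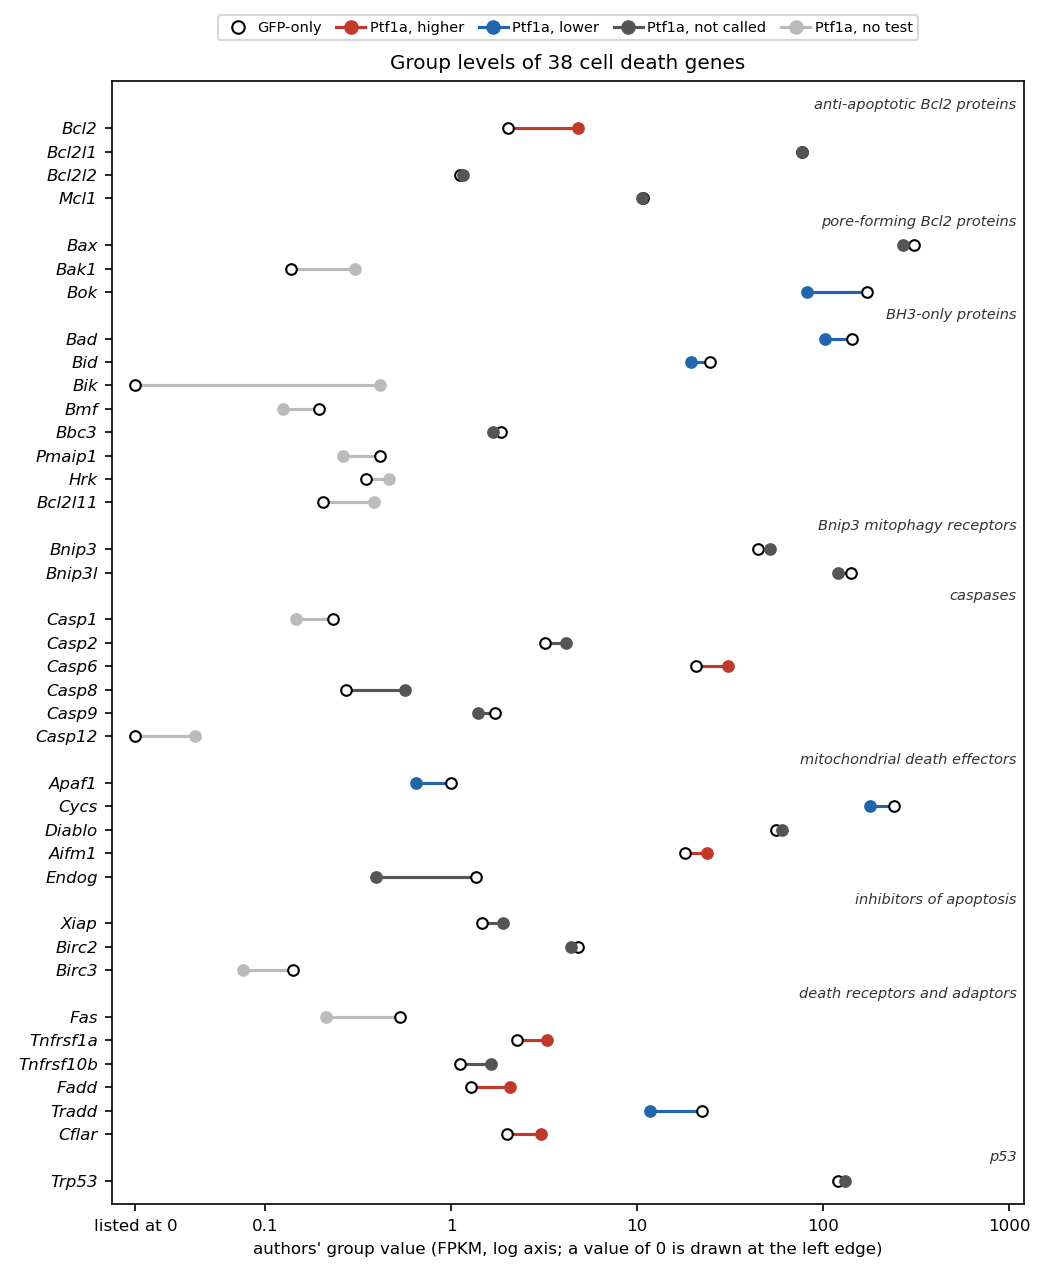
Group values of the 38 cell death genes in FPKM on a log axis, open circles for GFP-only controls and filled circles for Ptf1a, coloured by the authors' test and ordered by the role of the protein. Bax, Cycs and Bok were the most abundant members in controls, and the untested members lie at the left, under 0.6 FPKM.

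The anti-apoptotic proteins hold Bax and Bak1 in check, and among them the rise was confined to Bcl2 of the 4 measured. Bcl2 (chromosome 1, 108434756 to 108610867, mm9), the founding member of the family, stood at 2.01 FPKM in controls and 4.81 FPKM with Ptf1a. It was 2.40-fold higher, with a log2 fold of 1.26, an implied standard error of 0.47 and q = 0.000329 in the authors' deposited table. Bcl2l1, the main survival factor of young neurons, was far more abundant, at 76.6 and 77.3 FPKM, and was not called (log2 fold 0.013, implied standard error 0.22, q = 0.938 in the authors' deposited table). Mcl1, which protects neural progenitors, stood at 10.8 and 10.6 FPKM (q = 0.906), and Bcl2l2 (Bcl-w) at 1.12 and 1.15 FPKM (q = 0.899). Because Bcl2l1 made up most of the group, the summed level of the 4 genes was 90.5 FPKM in controls and 93.9 FPKM with Ptf1a. The share of Bcl2 in that sum went from 2.22% to 5.12%, while that of Bcl2l1 was 84.7% and 82.4%.

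The pore-forming proteins Bax, Bak1 and Bok carry out the permeabilisation of the mitochondrion. Bok (chromosome 1, 95582271 to 95592339, mm9), which can form pores without BH3-only proteins and is kept low by proteasomal turnover, showed the largest fall among the called members. Its level was 172.9 FPKM in controls and 81.9 FPKM with Ptf1a, 2.11 times lower, with a log2 fold of -1.08, an implied standard error of 0.20 and q = 0.000329 in the authors' deposited table. Bax (chromosome 7, 52717065 to 52722268, mm9) was the most abundant of all members, at 309.6 and 269.9 FPKM, and was not called (q = 0.119 in the authors' deposited table). Bak1, the close relative of Bax, was barely detected, at 0.137 and 0.303 FPKM and with no test; its locus also holds Ggnbp1. In controls Bax was 1.79 times as abundant as Bok, and with Ptf1a 3.30 times. The summed level of the pore-forming genes was 5.33 times that of the anti-apoptotic genes in controls and 3.75 times with Ptf1a; these are ratios of transcript levels per length, with no test.

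The start regions of the members with the largest called rise and fall, Bcl2 and Bok, are shown for their base composition and motif content. The Fadd region is also shown. It was chosen after its match to an E2F motif was seen, the one such match among the called members with a start region. Bases upstream of the start are from the RefSeq promoter table on GRCm38.p6, 250 bases each, 5′ to 3′ on the strand of the gene, with matched motifs in capitals. Bok lies at chr1:93685325-93685574 on the plus strand and its region has 55.2% G and C. Bcl2 lies at chr1:106714291-106714540 on the minus strand, with 74.8% G and C. Fadd lies at chr7:144582442-144582691 on the minus strand, with 60.4% G and C. The median was 52.4% over all start regions of this length and 59.4% over those of the members.
Bok: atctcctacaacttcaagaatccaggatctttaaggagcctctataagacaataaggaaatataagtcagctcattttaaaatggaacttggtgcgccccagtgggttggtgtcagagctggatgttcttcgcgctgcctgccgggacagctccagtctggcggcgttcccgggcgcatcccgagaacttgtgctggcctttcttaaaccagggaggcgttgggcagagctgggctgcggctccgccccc
Bcl2: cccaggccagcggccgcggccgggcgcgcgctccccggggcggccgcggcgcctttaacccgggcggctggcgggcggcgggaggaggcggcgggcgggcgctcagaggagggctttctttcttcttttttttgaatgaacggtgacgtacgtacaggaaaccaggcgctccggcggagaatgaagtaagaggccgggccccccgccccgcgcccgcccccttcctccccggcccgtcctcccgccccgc
Fadd: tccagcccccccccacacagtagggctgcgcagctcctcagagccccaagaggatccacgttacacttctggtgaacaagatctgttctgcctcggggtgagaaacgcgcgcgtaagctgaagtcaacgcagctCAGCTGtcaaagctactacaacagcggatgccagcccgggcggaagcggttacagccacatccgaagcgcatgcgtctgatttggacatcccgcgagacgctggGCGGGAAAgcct

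Ptf1a binds E-box motifs together with a TC-box that its partner Rbpj recognises, so the E-boxes CAGCTG and CATCTG and the TC-box core TGGGAA were searched on both strands, as were the E2F motifs TTTCCCGC and TTTGGCGC; none of these motifs contains another. RefSeq start regions were found for 33 of the 38 members, 44 starts in all, and not for Bik, Bnip3l, Pmaip1, Tnfrsf10b and Tradd. One of these E-boxes was present in 15.9% of the members' start regions and in 25.5% of all 32851 regions of that length. The TC-box core was present in 25.0% of the members' regions and 21.6% of all regions. An E-box and a TC-box core together were present in 2.27% of the members' regions and in 5.81% of all regions. Among the members Bmf alone held both, a gene without a test. An E2F motif was present in 4.55% of the members' regions (2 of 44, those of Casp2 and Fadd) and in 1.30% of all regions. The Fadd region also held the E-box CAGCTG. None of the Bok, Bcl2 and Apaf1 regions held any of these motifs, which says only that these letters are not in this window. The Apaf1 region is not shown.

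BH3-only proteins start the mitochondrial route, and of these 8 genes the 2 most abundant, Bad and Bid, fell. Another 5 had no test and were under 0.6 FPKM in both groups. With tested genes split into 10 bins of mean expression, 58.2% of genes in the bin of Bad fell and 23.7% in that of Bid. Bad (chromosome 19, 7012560 to 7026383, mm9), which is silenced by survival signalling through Akt, fell from 142.8 to 102.9 FPKM (log2 fold -0.47, implied standard error 0.25, q = 0.000612 in the authors' deposited table). Its locus is shared with Gpr137, at 24.5 and 19.1 FPKM, and whether the counting kept the 2 genes apart is not given in the sources used here. Bid, which caspase-8 cleaves to link the receptor route to mitochondria, fell from 24.5 to 19.5 FPKM (log2 fold -0.33, q = 0.0357 in the authors' deposited table). Bbc3 (Puma), a p53 target, was uncalled at 1.84 and 1.67 FPKM. Among the untested 5, Pmaip1 (Noxa), another p53 target, was at 0.411 and 0.260 FPKM, Bcl2l11 (Bim), which responds to loss of trophic support, at 0.204 and 0.383 FPKM, Hrk at 0.349 and 0.460 FPKM and Bmf at 0.193 and 0.125 FPKM. Bik was listed at 0 in controls and at 0.411 FPKM with Ptf1a. Bnip3 and Bnip3l, BH3-like receptors that mark mitochondria for autophagy, were abundant and not called, at 44.7 and 51.5 FPKM and at 141.5 and 120.8 FPKM (q = 0.145 and 0.0561 in the authors' deposited table).

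Once cytochrome c is free, Apaf1 uses it to activate caspase-9, and both components of this platform, Cycs and Apaf1, fell. Of tested genes in the same of 10 bins of mean expression, 58.2% fell in the bin of Cycs and 8.00% in that of Apaf1. Cycs (chromosome 6, 50512562 to 50516473, mm9), which encodes cytochrome c and serves respiration in living cells, fell from 239.9 to 179.5 FPKM (log2 fold -0.42, implied standard error 0.22, q = 0.000329 in the authors' deposited table). Cycs has processed copies elsewhere in the genome, so its value depends on how shared reads were assigned. Apaf1 (chromosome 10, 90452056 to 90545488, mm9) fell from 0.992 to 0.646 FPKM (log2 fold -0.62, implied standard error 0.50, q = 0.0229 in the authors' deposited table). Cycs was more abundant than Apaf1 by 242 times in controls and 278 times with Ptf1a. Diablo (Smac), which frees caspases from the inhibitors of apoptosis, was uncalled at 55.5 and 59.7 FPKM and shares its locus with B3gnt4. Aifm1, a mitochondrial flavoprotein needed for respiration that can move to the nucleus in caspase-independent death, rose from 18.0 to 23.7 FPKM (log2 fold 0.39, implied standard error 0.27, q = 0.00905 in the authors' deposited table). Endog, a mitochondrial nuclease, had the lowest log2 fold of the tested members, -1.78, from 1.35 to 0.393 FPKM, but was not called (q = 0.404 in the authors' deposited table). Its implied standard error was 2.58, against a median of 0.59 for tested genes in the same of 10 bins of mean expression, from 0.751 to 1.25 FPKM. The Endog locus also holds D2Wsu81e, at 49.2 and 46.0 FPKM; the part of that neighbour in the value was not tested.

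**Figure D2:**
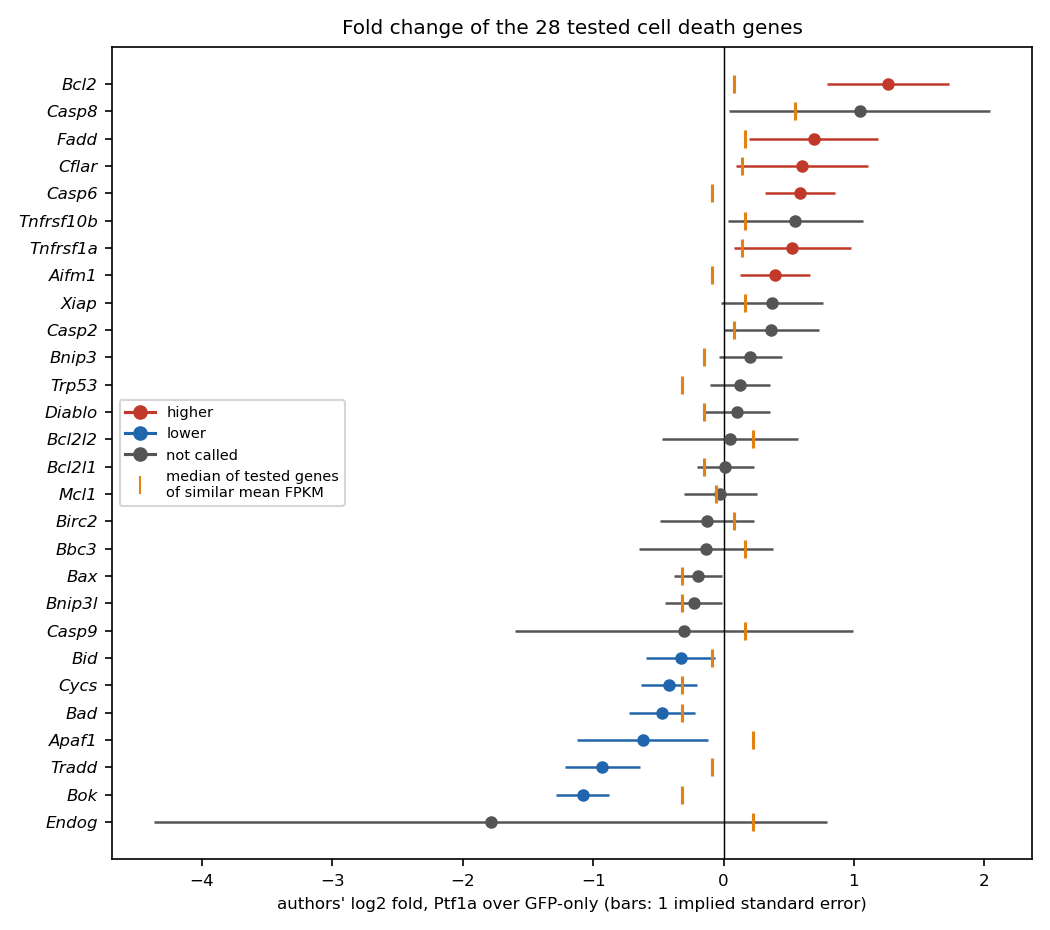
Authors' log2 fold, Ptf1a over GFP-only, of the 28 tested cell death genes, with bars of 1 implied standard error and, as orange ticks, the median log2 fold of tested genes in the same of 10 bins of mean expression. Bcl2 stands at the top with 1.26 and Bok is lowest among called genes with -1.08. The bars of Endog and Casp9 are the widest and, like those of several other uncalled genes, span both sides of 0.

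Caspases cut the proteins of the dying cell or activate one another. Casp6, an executioner that also trims axons during development, was the one member of the 6 that rose. Casp6 (chromosome 3, 129604343 to 129617020, mm9) went from 20.6 to 31.0 FPKM, 50.0% higher, with a log2 fold of 0.58, an implied standard error of 0.27 and q = 0.000329 in the authors' deposited table. Casp2, activated after DNA damage, stood at 3.19 and 4.12 FPKM (q = 0.0737 in the authors' deposited table). Casp8, the initiator of the receptor route, stood at 0.272 and 0.562 FPKM (q = 0.0588 in the authors' deposited table), with an implied standard error of 1.00. Casp9, the initiator of the mitochondrial route, was uncalled at 1.72 and 1.39 FPKM; it shares a locus with the pancreatic elastase gene Cela2a, at 0.0487 and 10.6 FPKM, and its implied standard error was 1.30. The inflammatory caspases were at the edge of detection and untested, Casp1 at 0.230 and 0.147 FPKM and Casp12 listed at 0 in controls and at 0.0419 FPKM with Ptf1a.

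The inhibitors of apoptosis block caspases or tag death complexes with ubiquitin. Xiap, a direct inhibitor of caspase-9, stood at 1.46 and 1.88 FPKM (q = 0.0766 in the authors' deposited table). Birc2 (cIAP1) stood at 4.80 and 4.40 FPKM (q = 0.576), and Birc3 (cIAP2) at 0.141 and 0.0754 FPKM with no test. None of the 3 was thus called, and the sum of their levels was 6.39 and 6.36 FPKM. Trp53, the transcription factor that induces Bax, Bbc3 and Pmaip1 after damage, was abundant and not called, at 120 FPKM in controls and 131 FPKM with Ptf1a (q = 0.344 in the authors' deposited table).

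In the death receptor route 3 of the weaker members, Fadd, Cflar and Tnfrsf1a, rose and the abundant adaptor Tradd fell. Of tested genes in the same bins of mean expression, 24.9% rose for Fadd, 24.0% rose for Cflar and Tnfrsf1a, and 23.7% fell for Tradd. Neither a q under 0.01 nor the normal p kept any of the 3 risen genes, and both kept Tradd. Tradd (chromosome 8, 107782475 to 107788494, mm9), which links the TNF receptor to survival and death complexes, fell from 22.4 to 11.7 FPKM, 1.90 times lower, with a log2 fold of -0.93, an implied standard error of 0.29 and q = 0.000329 in the authors' deposited table. Fadd (chromosome 7, 151764228 to 151768341, mm9), the adaptor that brings caspase-8 to the receptor, rose from 1.28 to 2.06 FPKM (log2 fold 0.69, implied standard error 0.49, q = 0.0144 in the authors' deposited table). Cflar (c-FLIP), the inactive relative of caspase-8 that restrains it, rose from 2.00 to 3.03 FPKM (log2 fold 0.60, q = 0.0247 in the authors' deposited table). Cflar and Casp8 lie near each other on chromosome 1, and Cflar was 7.33 times as abundant as Casp8 in controls and 5.38 times with Ptf1a. Tnfrsf1a, the TNF receptor with a death domain, went from 2.26 to 3.26 FPKM and was the called member closest to the threshold (q = 0.0482 in the authors' deposited table). Just outside it were Bnip3l at q = 0.0561 and Casp8 at q = 0.0588 in the same deposited table. Tnfrsf10b, the mouse TRAIL receptor, stood at 1.11 and 1.63 FPKM (q = 0.0638 in the authors' deposited table), and Fas at 0.530 and 0.211 FPKM without a test. Tradd was 17.5 times as abundant as Fadd in controls and 5.71 times with Ptf1a.

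Abundance itself moved with the groups, so each member was also set beside tested genes of like level, in 10 bins of mean expression holding equal numbers of tested genes. In the top bin, above 97.3 FPKM, 58.2% of 1188 genes fell and 3.79% rose, with a median log2(FPKM + 0.1) difference of -0.32. Within that bin Bok was the 13th lowest of the 1188 genes. Bad and Cycs, by contrast, lay near the middle, with 30.7% and 38.7% of the bin below them. Trp53, not called, had a log2(FPKM + 0.1) difference of 0.13 and lay above 92.5% of that bin, and Bax, at -0.20, above 66.3%. Tradd was the 23rd lowest of 1188 genes in its bin, where 23.7% fell. Apaf1 fell in a bin where 8.00% of genes did so and 26.1% rose, with 11.8% of the bin below it. Among the risen members Bcl2 lay above 94.9% and Casp6 above 94.9% of their bins, Aifm1 above 91.2%, and Cflar, Fadd and Tnfrsf1a above 81.7%, 80.6% and 78.5%. These ranks are descriptions of the table, with no test.

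**Figure D3:**
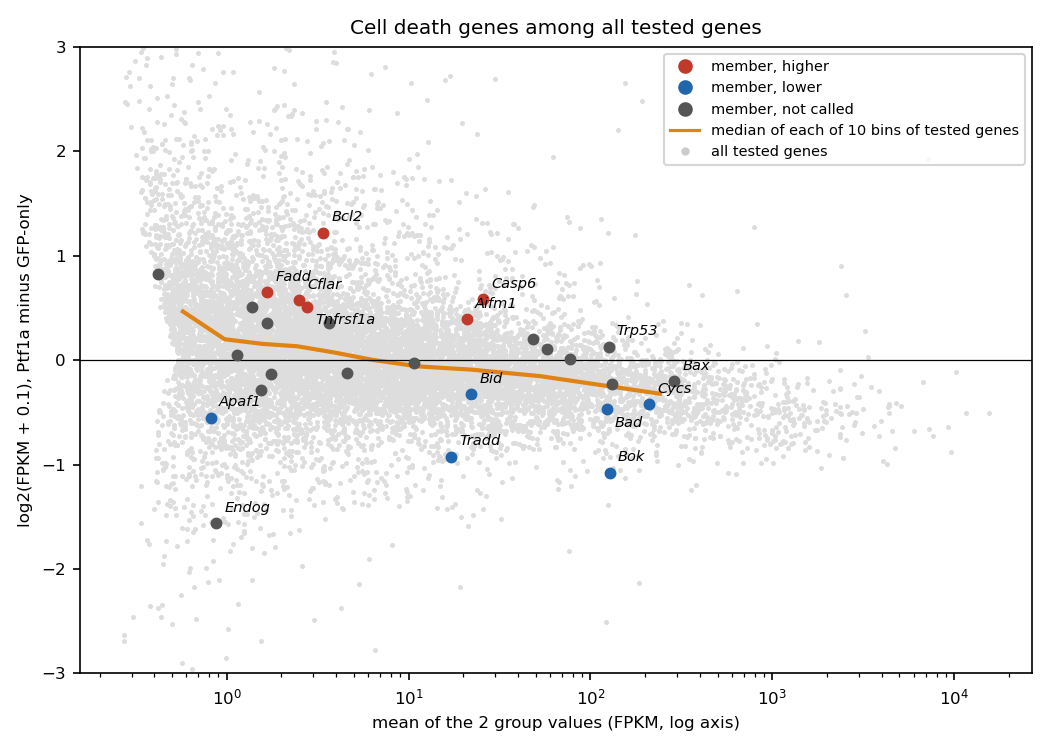
Difference in log2(FPKM + 0.1), Ptf1a minus GFP-only, against the mean of both group values in FPKM on a log axis for all tested genes (grey; 121 lie beyond the plotted range), with the tested members coloured by call and the median of each of 10 bins of mean expression as an orange line. The median falls from 0.47 in the lowest bin to -0.32 in the highest; Bok and Tradd lie well below the line and Bcl2 well above it.

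The rest of the cell death pathway was described from 5 further lists; of all tested genes 18.7% rose and 19.1% fell. In the wider Bcl2 family 2 of 10 tested genes rose and 1 fell. Bcl2l12 rose from 5.60 to 10.3 FPKM and Tmbim6 (Bax inhibitor 1), a membrane protein of the endoplasmic reticulum, from 51.7 to 70.8 FPKM, while Faim2, a neuronal inhibitor of Fas signalling, fell from 3.66 to 2.76 FPKM. Tmbim4, Bcap31 and Faim were abundant and not called. The Bcl2a1 copies, which are near-identical to each other, and Bcl2l10, Bcl2l14 and Bcl2l15, chosen after their values were seen, had no test. Of the other caspases and demolition genes 1 of 12 rose, Cradd, the adaptor of caspase-2 (6.58 to 9.31 FPKM). Acin1 and Dfna5 were not called.

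Among the other inhibitors of apoptosis and their antagonists 1 of 9 rose and 1 fell. Birc5 (survivin), which also serves the mitotic chromosomal passenger complex, rose from 30.7 to 53.7 FPKM, beside the risen cell cycle genes given above, and Htra2, a mitochondrial protease that antagonises Xiap, fell from 29.1 to 21.3 FPKM. Traf2, Api5 and Sept4 were not called. Of the other death receptors, ligands and adaptors 3 of 14 rose and 0 fell. The risen genes were the dependence receptors Dcc (1.02 to 2.72 FPKM) and Ntrk3 (7.89 to 11.1 FPKM) and the death receptor Tnfrsf21 (2.66 to 3.66 FPKM), which acts in axon pruning; Dcc and Ntrk3 also guide and support axons. Tax1bp1, Daxx and Dedd were not called. The death ligand gene Tnf was listed at 0 in controls and at 0.0751 FPKM with Ptf1a, and Fasl at 0.0388 FPKM in controls and at 0 with Ptf1a, both untested and chosen after their values were seen. Among p53 relatives, regulators and targets 7 of 23 tested genes rose and 3 fell, against 18.7% and 19.1% of all tested genes. Trp53inp1 rose from 1.68 to 4.98 FPKM, Sesn2 from 0.193 to 0.724 FPKM, Btg2 from 14.6 to 36.3 FPKM, Cdkn1a (p21), an arrest gene, from 5.79 to 14.2 FPKM and the mitotic gene Gtse1 from 1.40 to 3.16 FPKM. The 3 fallen genes, named after their values were seen, were Sesn1 (16.4 to 11.2 FPKM), Ppp1r13b (3.06 to 2.20 FPKM) and Tigar (4.78 to 3.55 FPKM). Plk2, Aen and Ei24 were not called.

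**Figure D4:**
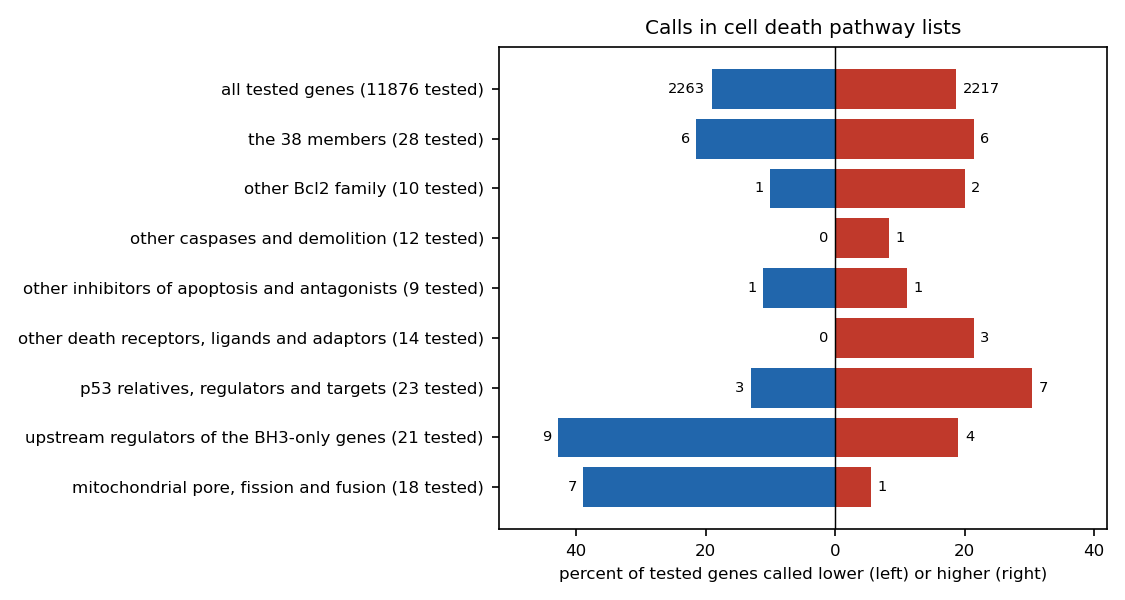
Percent of tested genes called lower (blue, left) or higher (red, right) with Ptf1a at a q under 0.05, with the counts printed at the bars, for all tested genes, the 38 members and 7 further pathway lists. The members, with 6 called in each direction, sit close to the bar of all tested genes, and falls outnumber rises in the lists of upstream regulators (9 against 4) and of mitochondrial genes (7 against 1).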

How the data were processed

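RNA of 3 Ptf1a and 2 GFP-only samples was amplified from 2.1 to 7.8 ng with 10 PCR cycles, per the labels' protocols, and read at 50 bp from both ends. The submitters' processing notes name Cuffdiff, Cufflinks 2.1.1, TopHat2 2.0.8 and CASAVA 1.8.2, and the build mm9; the Cuffdiff version, annotation, strand setting and parameters are not given in the sources used here. The deposited FPKM values are one per group. The authors' log2 fold, test statistic (a signed score), p-value and q-value stood beside them, per the file headers. No per-sample value or depth was analysed here, and the replicates' source beyond pooled brains is not stated. The group headed PIG was read as Ptf1a, the only group beside GFP.

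Locus starts counted from 0 (end minus start equalled RefSeq's gene length for 7148 genes, against 451 counting from 1) and are printed from 1. Calls used the authors' Cuffdiff q under 0.05, adjusted over all tested genes. Log2 differences computed here used a pseudocount of 0.1 FPKM, which understates weak genes' changes. The 10 expression bins hold equal numbers of tested genes by mean FPKM. The members and lists were chosen with earlier results of these data known. Named are all members and, per further list, up to 5 called genes with the largest difference and the 3 most abundant uncalled genes; some genes that this rule names are not reported here. For 3 genes of the lists older symbols were matched through RefSeq synonyms. The adjustment step was tested on simulated data. Python 3.11.15, pandas 2.3.3 and scipy 1.17.1 were used.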

Additional observations from a re-analysis of the deposited data

How the results depend on the processing

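Of the alternatives tried, calls from a two-sided normal p of the authors' own test statistic kept the fewest genes overall. With that normal p, adjusted over all tested genes, 391 genes were higher and 331 lower (6.08% of tested genes); of the members 0 were higher and 2 lower, Bok and Tradd. Bcl2 missed the threshold there, at an adjusted value of 0.092 from Cuffdiff's statistic. The 7 further lists then held 6 higher and 0 lower genes. At a q under 0.01, 7 of the 12 called members remained and 3 were higher. Asking for at least 1 FPKM in either group kept 11 of the 12 and removed Apaf1. Of all genes 1881 were then higher and 2215 lower. Asking for at least a 1.5-fold change on the log2(FPKM + 0.1) scale left 2 members higher and 2 lower, and 1541 of all genes higher and 915 lower. At 2-fold on that scale 1 member was higher and 1 lower, against 792 and 222 of all genes. The members' median log2 difference became 0.14 when centred on the bin of mean expression and -0.0059 over the 36 members above 0 in both groups. Centring on the bin turned the sign of 4 uncalled members, Bax (0.12), Bcl2l2 (-0.15), Bnip3l (0.093) and Mcl1 (0.034); no called member turned under any pseudocount or centring tried. Leaving out members that share a locus, an alternative chosen after seeing the data, removed Bad from the calls. No paired analysis was possible because the table holds 1 merged value per group, and for the same reason no replicate could be left out.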

Other observations

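Of 21 tested genes that act upstream of the Bcl2 family in signalling or transcription, 9 fell and 4 rose, where 19.1% of all tested genes fell and 18.7% rose. Abundant genes such as Ywhaz (415 to 338 FPKM) and Atf4 (133 to 97.1 FPKM), both chosen after their values were seen, were among the fallen, and in the top expression bin, above 97.3 FPKM, 58.2% of genes fell. Egln3, a prolyl hydroxylase linked to neuronal death after loss of trophic support, rose from 0.768 to 4.39 FPKM, Foxo1 from 0.243 to 1.01 FPKM, Trib3 from 0.147 to 0.710 FPKM and E2f3 from 0.394 to 0.766 FPKM, and Mycn fell from 19.9 to 12.8 FPKM. Tfdp1, Ddit3 and Akt2 were not called. Chosen after their values were seen, the stress kinase gene Mapk8 (9.70 to 6.46 FPKM), its target Jun (20.7 to 14.6 FPKM) and the survival kinase gene Akt1 (38.6 to 27.3 FPKM) were among the fallen, so that genes known to promote death and genes known to oppose it both fell.

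Genes of the mitochondrial pore, fission and fusion fell in 7 of 18 tested and rose in 1. The respiratory partner of cytochrome c, Cyc1, fell from 442 to 303 FPKM, the adenine nucleotide carrier Slc25a4 from 2310 to 1618 FPKM, the fission receptor Mff from 217 to 164 FPKM, the outer membrane channel Vdac3 from 807 to 621 FPKM and the protease Oma1 from 21.0 to 16.4 FPKM. Slc25a5, Vdac2 and Chchd3 were abundant and not called. The fallen genes other than Oma1 had a mean above 97.3 FPKM, in the top expression bin, where 58.2% of genes fell. The fusion gene Opa1, chosen after its value was seen, rose from 3.14 to 4.01 FPKM.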
